A study of Mus musculus with 29 samples.

Results

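Defensins are small secreted antimicrobial peptides held in shape by disulfide bonds, and their genes lie in tandem clusters. Alpha defensins, called cryptdins in the mouse, are made by Paneth cells at the base of the small intestinal crypts, stored in granules and cut into their active form by the protease Mmp7. Beta defensins are made by epithelia of the skin, airway, kidney and, for many members, by the epididymis, where some coat sperm. The genes described here are the protein-coding RefSeq genes of chromosomes 1 to 19 with the symbol Defa or Defb followed by digits. They number 70 of 20558 protein-coding genes, 28 alpha and 42 beta. The rule used symbols only and no measured value, but it was set with earlier results of these data known.

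The measured quantity was monoubiquitinated histone H2A (H2Aub), which Polycomb repressive complex 1 deposits, and CUT&RUN was the assay, in which an antibody-directed nuclease cuts out the DNA that carries the mark. The study profiled 29 mouse libraries in 16 groups of 1 to 3, 24 for H2Aub and 5 for H3K27me3, with 1 to 300 oocytes or embryos per library where a number is given. Germinal vesicle oocytes for H2Aub were Eed (fl/fl) on a B6/129 mixed background, and metaphase II oocytes and the oocytes for H3K27me3 were WT on B6/DBA. Zygotes, inner cell mass and E6.5 epiblast were WT x WT (B6/DBA x PWK), 4-cell embryos and morulae were Eed (fl/fl) x WT (B6/129 mixed x PWK), and 2-cell libraries came from both crosses. The group labelled Eed MatKO carried Gdf9-Eed (fl/fl), in oocytes or on the maternal side of a cross to PWK, and Gdf9 is a gene of growing oocytes. The 4-cell groups labelled PR-DUB (CTR) and PR-DUB (OE), named for the complex that removes H2Aub, were WT x WT (B6/DBA x PWK).

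The values used here are 1 segmentation of the genome into H2Aub types numbered 1 to 5. It gives no key to the types, no level of H2Aub and no value per library, so no stage, genotype or treatment could be compared, no replicate error exists and the depth is unknown. None of the sampled cells is a Paneth cell or an epididymal cell. A gene was given the type with the largest share of its body. Genes that share a segment are not independent, so members were counted and described and no test was made. All positions are counted from 1 on mm10.

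All 28 alpha genes lay in type 1, each over its whole body, where 37.2% of all protein-coding genes lay. Of the 42 beta genes, types 2 and 3 held 14 each (33.3%), type 4 held 9 (21.4%), type 1 held 5 (11.9%) and type 5 held 0. Over all protein-coding genes type 2 had 5.44%, type 3 had 33.8%, type 4 had 14% and type 5 had 9.53%. The beta share was thus near that of all genes in type 3, above it in types 2 and 4, and below it in types 1 and 5. The alpha genes shared 1 segment, while the middles of the beta genes fell in 19 segments, 3 of type 1, 5 of type 2, 7 of type 3 and 4 of type 4. Counted by segment, beta genes stood at 15.8%, 26.3%, 36.8% and 21.1% in these types.

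**Figure D1:**
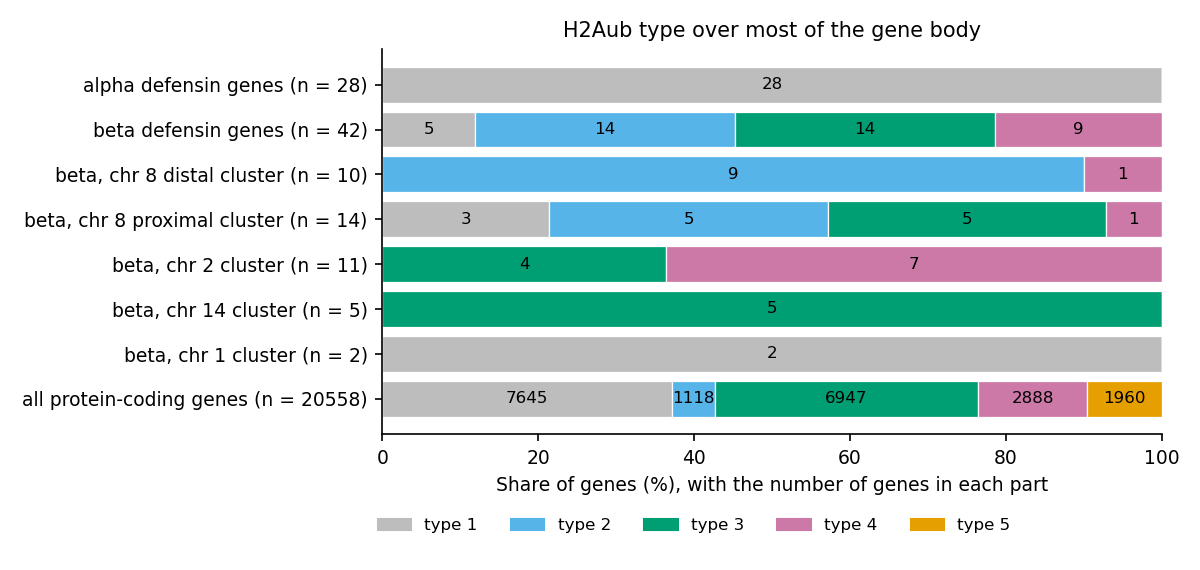
Share of genes by the H2Aub type covering most of the gene body, for alpha genes, all beta genes, beta genes of each cluster and all protein-coding genes, with the number of genes written in each part. The alpha bar is type 1 throughout, and the beta genes take types 1 to 4 in shares that differ from cluster to cluster.

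Members at most 500 kb apart were taken as 1 cluster, which gave 5 clusters. Chromosome 8 held 2 of them, called proximal and distal by their distance from the chromosome's start and 1395 kb apart. The proximal cluster (18974914 to 19497775, 523 kb) held 14 beta genes, and the distal cluster (20892667 to 21948622, 1056 kb) held all 28 alpha genes and 10 beta genes. Chromosome 2 held 11 beta genes (152459055 to 152623053, 164 kb), chromosome 14 held 5 (62977524 to 63048606, 71.1 kb) and chromosome 1 held 2 (18236402 to 18265138, 28.7 kb). Beta genes on chromosome 8 lay in type 2 in 14 of 24 cases, 9 of them in 1 segment. Those on the other chromosomes did in 0 of 18, and all protein-coding genes in 5.44%. On the other chromosomes types 3 (9 genes, 50%, against 33.8% of all genes) and 4 (7 genes, 38.9%, against 14%) were the most frequent.

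**Figure D2:**
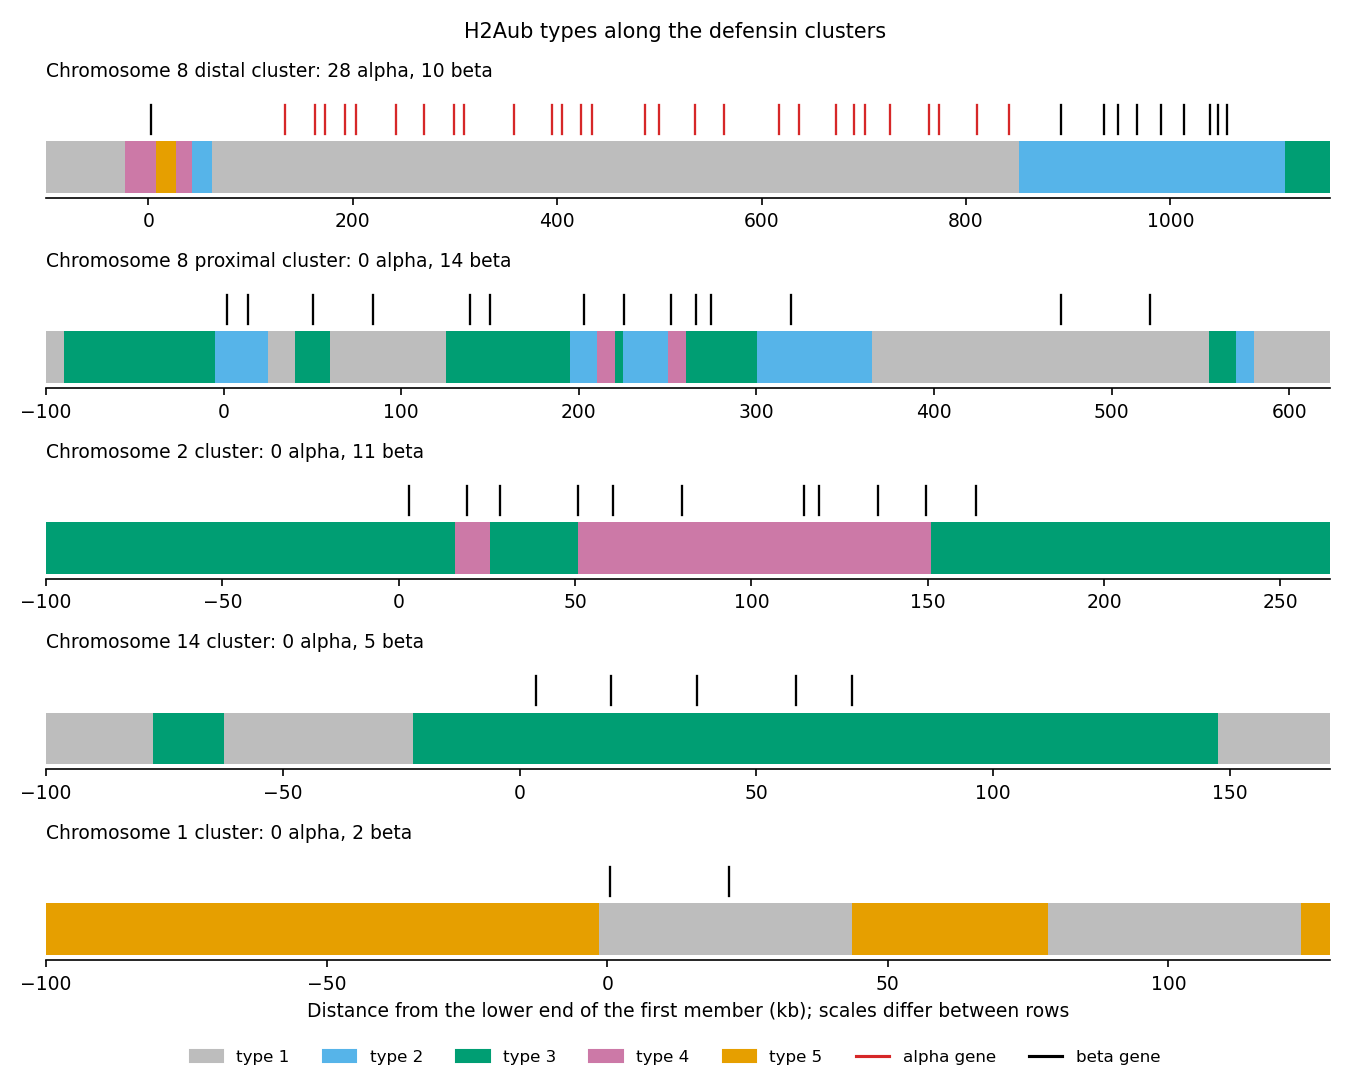
H2Aub types along the 5 clusters with 100 kb on each side, against distance in kb from the lower end of the first member, with a tick at the middle of each gene (red for alpha, black for beta). In the distal cluster of chromosome 8 the red ticks stand over 1 type 1 stretch and the 9 black ticks after them over 1 type 2 stretch.

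The alpha genes spanned 710 kb, from Defa21 (21025545 to 21026517) to Defa24 (21734494 to 21735471). Defa24 and Defa20 (21509258 to 21510237) encode cryptdins of Paneth cells, as does Defa17 (21655767 to 21656736). All 3, like the rest, lay 100% in type 1. The segment that held them ran from 20955001 to 21745000, 790 kb, and was the 46th longest of the 7926 type 1 segments that do not start a chromosome, whose median was 50 kb. Between the first gene and the segment's lower border lay 70.5 kb, and between the last gene and its upper border 9.53 kb. Alpha genes are short, 805 to 1133 bases with a median of 973, and filled only 3.42% of the segment. The median space between neighbours was 26.7 kb.

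The 790 kb segment held 30 protein-coding genes wholly, a number that only 3 of 7945 type 1 segments exceeded. Its members other than the 28 alpha genes were Defa-ps8 and Gm15313, which the rule does not take. Of 12 genes with a Defa-ps symbol in the 2 clusters of chromosome 8, most of them annotated as pseudogenes, 9 lay in type 1. Among the 9, Defa-ps14 and Defa-ps15 lay outside the 790 kb segment, in the 190 kb type 1 segment of the proximal cluster that held Defb8 and Defb7. Defa-ps11 (21749175 to 21750000), the first annotated gene past the segment's upper border, lay in type 2, as did Defa-ps12 and Defa-ps13 of the proximal cluster, which carry the beta names Defb46-ps and Defb54-ps as older symbols. Counting the 12 with the members, 37 of 40 alpha-named genes lay in type 1 (92.5%, against 37.2% of all protein-coding genes), not all in 1 segment.

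Types changed over short distances before the alpha segment. Defb33 (20892667 to 20897723), the first gene of the distal cluster and the only one by the rule on that side, lay 100% in a 30 kb type 4 segment. A 20 kb type 5 segment followed with Gm15056 wholly inside and Gm6040 over 89.6% of its body, 2 genes that carry Defb52 and Defb51 as older symbols. Next came 15 kb of type 4 and 20 kb of type 2 with AY761185. In the 500 kb before Defb33, type 1 covered 95.5% and type 4 the rest.

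At position 21745001 the type changed from 1 to 2, between Defa24 and Defb1. The 9 beta genes from Defb1 to Defb13 (21776555 to 21948622) all lay in the type 2 segment that began there and ran to 22005000. Defb1 (21776555 to 21795185), made constantly by kidney and airway epithelium, lay 31.6 kb inside it. Defb50, Defb2, whose product is induced in inflamed airways, Defb10, Defb9, Defb11, Defb15, Defb35 and Defb13 followed, each 100% in type 2. This segment of 260 kb was the 97th longest of 6000 type 2 segments, whose median was 25 kb. With 11 protein-coding genes wholly inside, it held more than any other type 2 segment, and 315 of the 6000 held at least 1. The genes that were not beta defensins were Fam90a1a, 10.1 kb past Defb13, and Ccdc70. In the 500 kb after Defb13, type 1 took 50%, type 3 35.7% and type 2 14.3%.

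Beta and alpha genes of the distal cluster had no type in common, with 0 of 10 beta genes in type 1 and 9 in type 2. Over all protein-coding genes these types had 37.2% and 5.44%. The 9 beta genes shared 1 segment, as the alpha genes did. The gene ends nearest each other, those of Defa24 and Defb1, were 41.1 kb apart. Over the whole distal span, 74.8% was type 1, 21.2% type 2, 2.12% type 4 and 1.89% type 5. The same types covered 32.1%, 11.2%, 13.6% and 24.0% of chromosomes 1 to 19. The span had 4.74 borders per Mb against 12.8 over chromosomes 1 to 19.

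**Figure D3:**
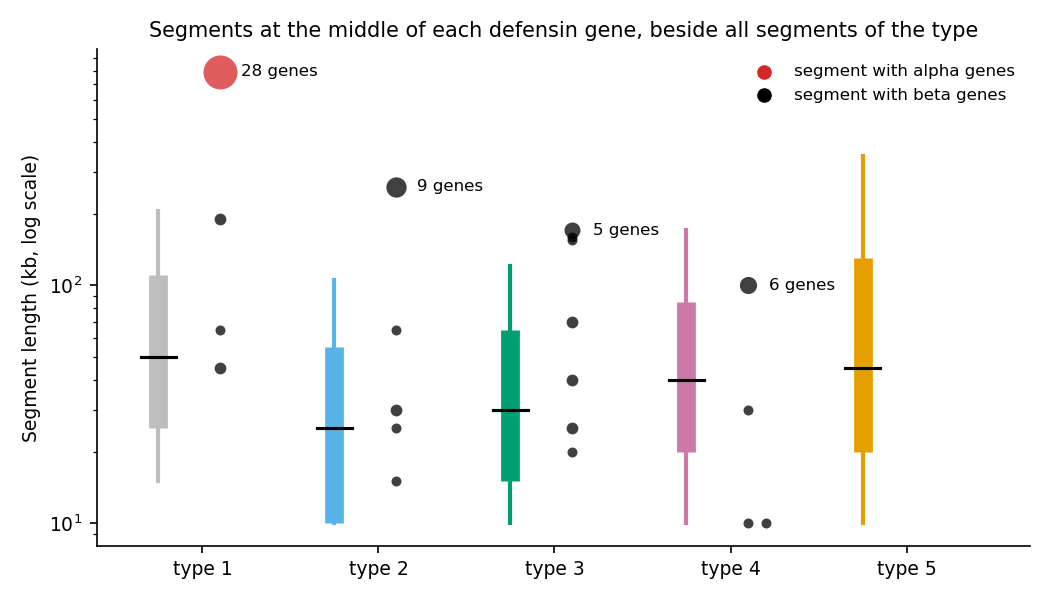
Length in kb, on a log scale, of the segments at the middles of defensin genes (red for alpha, black for beta, area growing with the number of genes), beside all segments of each type, drawn as the median (black line), the quartiles (thick bar) and the 10th to 90th percentiles (thin bar). The segments with 28 alpha genes (790 kb, type 1) and with 9 beta genes (260 kb, type 2) lie above the 90th percentile of their types, 205 and 106 kb.

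The proximal cluster of chromosome 8 held genes of 4 types, the most of the 5 clusters. Its 14 beta genes lay in types 2 (5 genes), 3 (5), 1 (3) and 4 (1), and its span crossed 12 borders, 23.0 per Mb. Type 2 thus held 35.7% of these genes against 5.44% of all protein-coding genes, and type 3 35.7%, near 33.8%. Types 1 (21.4%, against 37.2%) and 4 (7.14%, against 14%) held less. Of the span, type 1 covered 45.5%, type 3 25.8%, type 2 24.9% and type 4 3.83%. Over chromosomes 1 to 19 type 1 covered 32.1%, type 2 11.2% and type 4 13.6%. The span was thus above those chromosomes in types 1 and 2, as it was in type 3, and below them in type 4. In order, Defb40 (18974914 to 18978221) and Defb37 lay in a 30 kb type 2 segment, Defb38 in a 20 kb type 3 segment and Defb39 (19052825 to 19064921), whose body is 12.1 kb, in a 65 kb type 1 segment. Defb12 and Defb34 lay in type 3 in a segment of 70 kb that also held Spag11a and Spag11b, genes of epididymal secreted proteins related to beta defensins. Defb6 lay in a 10 kb type 4 segment, Defb46 and Defb5 in a 40 kb type 3 segment and Defb3 (19293361 to 19295339), an inducible airway gene, in a 65 kb type 2 segment. Defb8 and Defb7 (19495097 to 19497775), set 150 kb or more beyond Defb3, lay in a 190 kb type 1 segment. The nearest gene before the cluster, Xkr5, lay wholly in type 3, 23.8 kb away.

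The members divided between types stood next to each other here. Defb14 (19160244 to 19195309), the mouse counterpart of the human skin defensin beta 3, is annotated over 35.1 kb, the longest body of all members. It was 42.8% type 2, 28.7% type 3 and 28.5% type 4. Defb4 (19198704 to 19201547), which follows 3.39 kb later, was 54.4% type 2 and 45.6% type 3. Both were counted in type 2, Defb14 with less of its body in that type than outside it.

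On chromosome 2 the types were 3 and 4 only. Defb28, Defb29, Defb21, Defb19 and Defb45 lay wholly in a type 4 segment of 100 kb (152510001 to 152610000), Defb20 (152477063 to 152479934) in a type 4 segment of 10 kb. Defb19, expressed in the gonads, occupied 152576086 to 152580312, and Defb29 152538714 to 152540041. Defb36 crossed the upper border of the 100 kb segment and was 67.5% type 4 and 32.5% type 3. Defb26 crossed the lower one and was 56.4% type 3 and 43.6% type 4. Defb23 (152459055 to 152464620) at one end, Defb25 (152622356 to 152623053) at the other and Defb22 (152485666 to 152490138), whose product coats sperm, lay wholly in type 3. Of the span, 67.1% was type 4 and 32.9% type 3, at 24.4 borders per Mb, and the neighbours 6820408C15Rik and Rem1 lay wholly in type 3.

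The 2 smallest clusters each lay in 1 segment. On chromosome 14, Defb48 (62977524 to 62984510), Defb47, Defb43, Defb30 (63034087 to 63037846) and Defb42 (63046991 to 63048606) lay wholly in a type 3 segment of 170 kb, above the 90th percentile of type 3 lengths (120 kb). Wdfy2, before them, was 80.7% type 1, and Ctsb, the cathepsin B gene after them, 89.2%. On chromosome 1, Defb18 (18236402 to 18237476) and Defb41 (18250978 to 18265138) lay wholly in a 45 kb type 1 segment with type 5 on both sides. Crisp4, an epididymal sperm protein gene before them, was 67.4% type 5. Type 1 in this cluster thus came in a short segment, as against 790 kb around the alpha genes.

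Distance to a border is bounded by the length of the segment a gene lies in. All 28 alpha distances were taken inside 1 segment of 790 kb, and 9 of the beta distances inside 1 of 260 kb. They are thus not separate observations of a group. Alpha genes stood a median of 193 kb (9.53 to 371) from the nearest change of type and beta genes 18.1 kb (0 to 120), the 4 divided beta genes being at 0. Beta genes were longer than alpha genes, with a median body of 3215 bases (698 to 35066). Outside the 4 divided members, 38 of 42 beta genes lay wholly in 1 type, as all 28 alpha genes did.

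Promoter sequences show how alike the alpha copies are. RefSeq windows on GRCm38.p6, from 250 bases before to 50 after an annotated start, were found for 16 alpha genes and 29 beta genes, Defb21 having 2. The 250 bases before the start are printed 5′ to 3′ along the gene's strand. Capitals mark each CG and each TATAAA, or its reverse complement TTTATA. Defa20 (chr8:21509008-21509257, plus strand) is shown because its window is identical to that of Defa2. Defa41 (chr8:21201354-21201603, plus strand) and Defa30 (chr8:21134400-21134649, plus strand) are shown because they hold the fewest and the most CpG among alpha windows.
Defa20: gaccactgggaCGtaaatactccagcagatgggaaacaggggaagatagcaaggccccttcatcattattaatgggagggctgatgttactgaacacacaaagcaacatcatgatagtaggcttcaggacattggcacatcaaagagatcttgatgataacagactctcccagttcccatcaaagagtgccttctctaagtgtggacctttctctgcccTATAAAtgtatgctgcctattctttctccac
Defa41: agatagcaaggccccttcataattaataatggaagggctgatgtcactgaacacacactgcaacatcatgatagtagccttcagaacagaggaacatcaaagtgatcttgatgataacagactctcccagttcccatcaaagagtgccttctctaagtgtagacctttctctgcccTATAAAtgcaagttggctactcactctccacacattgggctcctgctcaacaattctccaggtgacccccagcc
Defa30: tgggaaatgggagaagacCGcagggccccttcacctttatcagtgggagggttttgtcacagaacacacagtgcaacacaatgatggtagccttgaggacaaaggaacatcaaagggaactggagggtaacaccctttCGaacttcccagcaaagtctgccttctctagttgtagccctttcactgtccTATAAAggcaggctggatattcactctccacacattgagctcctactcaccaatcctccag

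All 120 pairs of alpha windows were compared by edit distance. Identity had a median of 71.3% (52.0 to 100%), and 17 pairs reached 90%. In 5 pairs the windows were identical, Defa2 with Defa20, Defa21 with Defa22, Defa23 with Defa31, Defa36 with Defa37 and Defa42 with Defa43. The 406 pairs of beta genes had a median identity of 46.7% (40.7 to 87.7%), none reached 90%, and the closest were Defb3 and Defb8, which lay in types 2 and 1. TATAAA or its reverse complement stood in 15 of 16 alpha windows (93.8%), in 5 of 30 beta windows (16.7%) and in 12.7% of the 20085 windows of protein-coding genes. In the 15 alpha windows it stood on the gene's strand 29 to 74 bases before the annotated start.

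Repeated sequence of this kind bears on how reads are placed, and how the authors treated reads that fit several places is not given in the sources used here. Of the 50-base windows in an alpha promoter, a median of 100% also stood elsewhere among all RefSeq promoters, on either strand, and 13 of 16 alpha promoters had over 50%. For beta promoters the median was 0%, the highest 19.5% (Defb8), and 0 of 30 passed 50%. Over all protein-coding genes 643 promoters (3.20%) passed 50%, and 580 of these 643 (90.2%) belonged to type 1 genes. Among promoters with no repeated window, 35.1% belonged to type 1 genes. Defa28 and Defa30 had no window repeated among RefSeq promoters, and sequence outside those promoters was not compared. Their type is that of the 1 segment they share with the other alpha genes, so it is no separate observation. Type 1 was also the first segment of all 19 chromosomes, at least 2.99 Mb each, and these starts are unsequenced in the mm10 build. The part of repeated sequence in the type of the alpha genes was not tested.

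Variant Polycomb repressive complex 1 is known to be recruited to CpG-rich promoters, so CpG was counted too. Among beta windows the fewest CpG, 0, were in 6, of which the first by position is Defb41 (chr1:18265139-18265388, minus strand, type 1). The most, 8, were in 3, those of Defb36, Defb47 and Defb21, and Defb36 (chr2:152604077-152604326, plus strand, type 4 over most of the body) is shown since its start is the outer end of the gene. In the 250 bases printed, 5 of the 8 CpG of Defb36 stand, and for Defa30 2 of its 3.
Defb41: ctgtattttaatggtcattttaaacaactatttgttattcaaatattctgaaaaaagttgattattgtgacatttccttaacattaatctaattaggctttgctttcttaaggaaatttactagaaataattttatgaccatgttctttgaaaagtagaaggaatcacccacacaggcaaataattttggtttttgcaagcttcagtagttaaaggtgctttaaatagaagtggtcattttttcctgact
Defb36: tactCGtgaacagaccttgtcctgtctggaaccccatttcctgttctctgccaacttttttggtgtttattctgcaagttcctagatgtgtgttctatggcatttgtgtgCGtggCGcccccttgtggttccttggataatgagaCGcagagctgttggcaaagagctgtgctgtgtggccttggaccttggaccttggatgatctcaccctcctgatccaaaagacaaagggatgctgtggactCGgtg

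Both groups were poor in CpG. Alpha windows held 0 to 3 (median 1), beta windows 0 to 8 (median 1.5), and the windows of all protein-coding genes a median of 14. No window of either group held 10 or more, which 57.9% of all windows did. Among beta genes the median was 0.5 for 4 windows of type 1 genes, 1 for 6 windows of type 2 genes, 1 for 11 windows of type 3 genes and 4 for 9 windows of type 4 genes. All protein-coding genes had 17, 13, 15 and 10 in types 1 to 4. The beta windows in type 4 ranged from 1, at Defb6, to 8, at Defb36 and at the second window of Defb21, so they overlapped those of the other types. Clusters differed too, with medians of 3.5 on chromosome 2, 3 on chromosome 14 and 1 in each chromosome 8 cluster. Most type 4 windows were of chromosome 2, and the others, of Defb6 and Defb33, held 1 and 2. Within chromosome 2, windows of the type 3 genes, Defb22, Defb23 and Defb26 only, held 0 or 1 and those of type 4 genes 2 to 8. The start base of Defb26, whose window held 1, lay in type 4. By the type at the start base, type 4 windows of chromosome 2 thus held 1 to 8 and met those of type 3. The parts of type and cluster were not tested. The ratio of observed to expected CpG had a median of 0.0618 in alpha and 0.0963 in beta windows, against 0.586 overall.

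**Figure D4:**
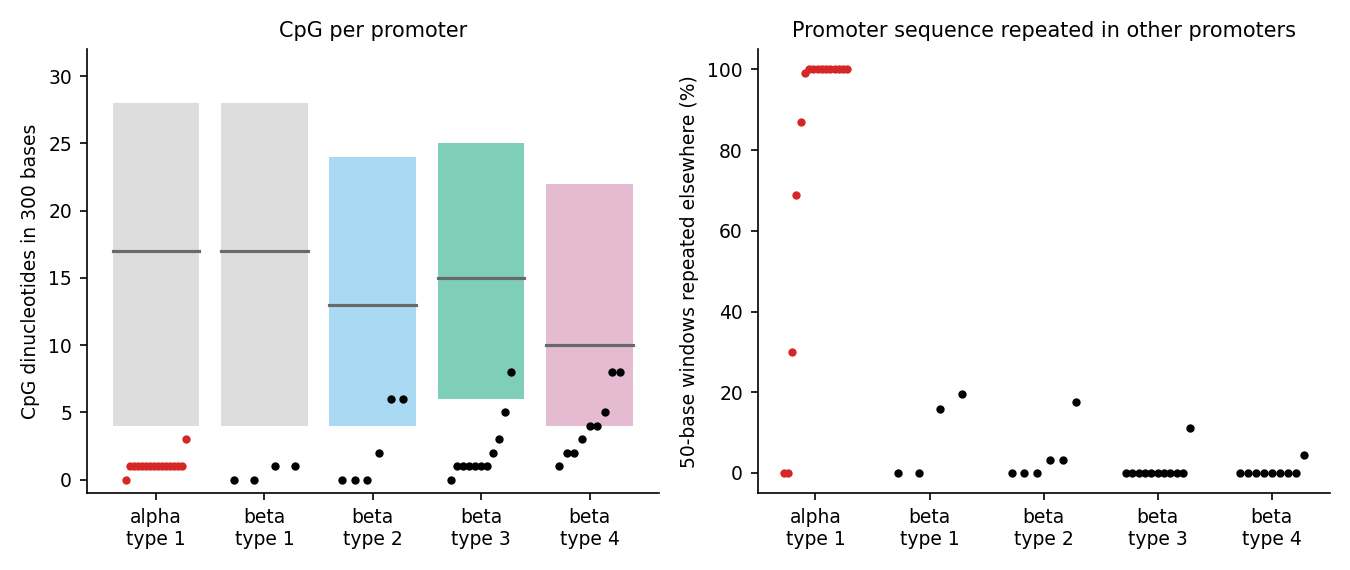
Left, CpG dinucleotides in each 300-base promoter window of a defensin gene (points), with the median and quartiles of all protein-coding genes of the same type (line and box). Right, percent of 50-base windows of each promoter that also stand elsewhere among RefSeq promoters. Defensin promoters lie at or below 8 CpG, and the repeated share is over 50% only in alpha promoters.

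Other genes around defensin function were spread over the types. Of 24 genes for other antimicrobial proteins, 23 were matched. Type 4 held 9 of them (39.1%, against 14% of all protein-coding genes) and type 3 held 7 (30.4%, near the 33.8% of all genes). Types 1 and 5 held 3 each (13.0%, against 37.2% and 9.53%), and type 2 held 1. In type 4 were Bpi, a neutrophil protein that binds endotoxin, Ctsg, a neutrophil protease, Lcn2, which binds bacterial siderophores, and, over 60.0% of its body, Itln1, a lectin. Camp, the cathelicidin gene, and Lyz1, the lysozyme of Paneth cells, lay in type 3 with Elane and Hamp2, and Reg3g lay in type 2. Hamp and Leap2 lay in type 1, as did Ang4, a Paneth cell ribonuclease, over 63.0% of its body. Reg3a, Reg3b and Retnlb lay in type 5.

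Of 15 genes for processing, receptors and Paneth cell regulators, 10 lay in type 3 (66.7%, against 33.8% of all genes), among them Mmp7, which cuts alpha defensin precursors, and Ccr6, a receptor for beta defensins, with Gfi1, Kcnn4 and Mc1r. Type 4 held 3 (20%, against 14%), Atoh1, Sox9 and, over 81.1% of its body, Tcf4 of chromosome 18. Tcf4 was listed by its symbol and is a different gene from Tcf7l2 of chromosome 19. Tcf7l2, also in the list, lay in type 3 over 68.7% of its body. Tlr4 lay in type 5 and Atg16l1 in type 1. Of 11 other epididymal genes, type 4 held 5 (45.5%, against 14%), among them Cst8, Lcn5 and Spint4 wholly and Cst11 over 52.0% of its body. All 5 were on chromosome 2, where Cst8 lay near Cst11 and Wfdc8, the fifth, near Spint4, so they are not 5 separate observations. Type 3 held 3 (27.3%, against 33.8%), Spag11a and Spag11b wholly and Lcn8 over 60.7%. Adam7, over 78.9%, and Crisp1 lay in type 5 and Rnase10 in type 1. These lists were not tested.

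Tandem families picked by symbol are set beside the defensins without a test. Type 2 held 14 of 70 defensin genes, 42 of 1101 Olfr genes (3.81%) and none of the 121 Vmn2r, 60 Klr and Clec, 109 Krt and Krtap and 18 Wfdc genes. Over all protein-coding genes it held 5.44%, so low counts in the smaller families say little. The 14 defensin genes were all on chromosome 8, and 9 of them shared 1 segment. Of the Wfdc genes, which encode protease inhibitors some of which are antimicrobial, 13 of 18 lay in type 4 (72.2%, against 14% of all protein-coding genes). The other 5 lay in type 3 (27.8%, against 33.8%). These are the same types that the chromosome 2 beta genes lay in. Wfdc8, on chromosome 2 and in type 4, is also among the epididymal genes above. The segments that genes of a compared family share were not counted, so these family shares are not of independent genes. Vmn2r genes lay in type 1 in 68.6% of cases (against 37.2% of all protein-coding genes) and in type 5 in 31.4% (against 9.53%). Type 5, which held 9.53% of all protein-coding genes, held none of the 70 genes taken by the rule. It took 55.8% of Olfr, 45.0% of Klr and Clec and 33.0% of Krt and Krtap genes.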

How the data were processed

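H2Aub and H3K27me3 CUT&RUN of 29 mouse libraries in 16 groups gave the series. The mm10 build, Bowtie2 2.3.4.3, deepTools 3.0.2, Picard 2.8.0 and Trim Galore 0.4.5 are named in the submitters' processing notes. The authors deposited 1 table of ChromHMM segments, whose values are category labels from 1 to 5 for 31563 segments, with no score or signal. Not given in the sources used here are the ChromHMM version, the input libraries and what each type stands for.

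All borders fell on multiples of 5 kb. Where segments overlapped (261 of 492539 bins of 5 kb), the shorter was used. Genes came from RefSeq on GRCm38.p6, the same build, without 333 genes placed on separate scaffolds. Each gene took the type over most of its body. Clusters joined members at most 500 kb apart, and flanks were 500 kb. Promoters and their strand came from the RefSeq promoter table, and identity was 100% minus edit distance over 300 bases (edlib 1.3.9, Python 3.11.15, pandas 2.3.3). Assignment was tested on simulated data.

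The genes and lists were chosen with earlier results of these data known. Values are given for the first and last gene of each cluster, divided genes, genes unlike their cluster's majority, 13 of 14 fixed genes (Defa1 was not matched), nearest neighbours, and the first 4 listed genes per list and type. Mmp7, Tcf7l2, Defa20's promoter, the choice of starts at the outer end of a gene, genes in the named segments and the families compared are additions made with values seen.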

Additional observations from a re-analysis of the deposited data

How the results depend on the processing

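The shares recomputed were those of alpha genes in type 1, of beta genes in each type and of each cluster span in its leading type. The other span shares were not recomputed. For genes, the settings were type at the middle, either end or the start base, 5 kb added on each side and genes at least 90% in 1 type. They also took all biotypes, the longer segment in overlaps and members of 1 segment counted once. For spans they were the longer segment in overlaps, clusters joined at 100 kb or 1 Mb, and spans widened by 50 kb. Of 74 recomputed shares, 43 equalled the main value, 28 differed from it within the exact 95% Clopper-Pearson interval of the main share and 3 lay outside. That interval takes genes, or the 5 kb bins of a span, as independent, which those of 1 segment are not, so it served only as a measure of size and shows no stability. Alpha genes stayed at 100% in type 1 except over all biotypes (92.5%). Beta genes ranged from 20.7 to 33.3% in type 2, 32.6 to 38.1% in type 3 and 20.9 to 31.0% in type 4. They ranged from 11.6 to 15.8% in type 1 and from 0 to 2.33% in type 5, the last through Defb44-ps. The 20.7% in type 2 and 31.0% in type 4 were by start base, which was known for 29 of 42 beta genes. Among these 29, only Defb26 had another type at its start base than over most of its body. Widened spans lowered type 1 of the chromosome 1 cluster from 100 to 35.1% and type 4 of the chromosome 2 cluster from 67.1 to 41.7%, by taking in flanking segments of other types. Joining at 100 kb set Defb8 and Defb7 apart and lowered type 1 of the proximal chromosome 8 cluster from 45.5 to 24.97%. Regrouped by the type at the start base, the median CpG of beta promoters was 3.5 in place of 4 for type 4 and 1 as before for types 2 and 3. With no library values, nothing here measures the spread between samples.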
